A study of Mus musculus with 23 samples.

Results

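The genes that encode integrin α and β chains and laminin α, β and γ chains were followed through mouse lung epithelial cells in culture and after contact with NTHi, which is non-typeable Haemophilus influenzae and colonises airways. They were chosen by symbol alone: integrin chains are rows named Itga or Itgb followed by digits (with or without a final b) or by a single letter, and laminin chains rows named Lama, Lamb or Lamc followed by digits. The rule leaves out 1 further integrin symbol of this form, which was not analysed here. The rule gave 36 of the 41073 genes in the tables, of which 25 were integrin chains (18 α and 7 β) and 11 were laminin chains. Bulk RNA sequencing covered C57BL/6 wild type cells selected for EpCAM, a surface protein of epithelia. Apart from the fresh libraries, the cells were kept in transwells, and airlift is the removal of medium from above them. All 23 libraries came from 3 experiments (A, B and C), with 3 libraries at fresh isolation, 6 on the day of airlift before any contact with the bacterium, 7 from day 4 cultures with NTHi and 7 from untreated day 4 cultures. The untreated groups and the NTHi group shared genotype, and the control and NTHi groups of day 4 also shared culture. The sources used here do not give the animals' age or the dose of NTHi.

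Integrins are receptors of the cell surface made of 1 α and 1 β chain, and the pair decides which ligand is bound. Laminins are heterotrimers of an α, a β and a γ chain that form the scaffold of the basement membrane, the sheet on which an epithelium sits. In lung epithelium, laminin-332, which holds the α3 and β3 chains, is known for anchoring cells through the integrins α3β1 and α6β4, while laminins with the α5 chain are the common ones of the adult airway and alveolus. Integrins with the αv chain bind proteins with the RGD motif, and some of them release active TGF-β. The β2 integrins are made by leukocytes.

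Libraries held 32323375 to 39081663 counts. Nothing in the labels says whether replicates were separate animals or cultures, so p-values measure the spread between these libraries, which may be technical. The labels call the cells airway epithelial. Epithelial markers (6 genes) summed to 7346 to 7914 CPM (counts scaled to library size) in fresh cells, and alveolar type 2 markers (8 genes), which include surfactant protein C, summed to 79820 to 105400 CPM there and to 1076 to 1151 CPM at airlift. The day 4 control library C1 and the NTHi library C3 deviated most from the other libraries of their group and experiment (SD of log2 deviations over genes 0.264 and 0.289), and for the genes described below, calls with NTHi over control that change when one or both are left out are given beside the gene.

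In every comparison most of the tested chains changed, in both directions. With NTHi at day 4, 16 of the 32 genes that could be tested were called higher than in control and 5 lower, which is 65.6% of them. Of all 16337 genes tested, 40.5% were called, 20.1% higher and 20.4% lower. At airlift, 17 of 34 were higher and 15 lower than at isolation (94.1%). Of 18302 genes 74.6% were called there, 37.9% higher and 36.7% lower. In day 4 control, 18 of 34 were higher and 7 lower than at airlift (73.5%), against 54.5% of all genes, 26.9% higher and 27.7% lower. Against isolation, 18 were higher and 12 lower in control (88.2%), and of all genes 76.6% were called, 38.8% higher and 37.7% lower. A gene was called at an adjusted p below 0.05 in edgeR's quasi-likelihood test with Benjamini-Hochberg adjustment over all genes tested, with experiment as a term. The comparisons share libraries, so the calls in them are not independent.

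The median log2 change of the tested chains was 0.20 with NTHi over control (all genes 0.00), 0.22 at airlift over isolation (all genes 0.00) and 0.25 in day 4 control over airlift (all genes -0.02). Of 9 laminins tested, 7 were higher and 0 lower in day 4 control over airlift, and 7 were higher and 1 lower in control over isolation. Each of the 21, 32, 25 and 30 called chains of the 4 comparisons had the same sign in all 3 experiments. The calls were made from these same experiments together, so the shared signs are not a separate check. The effect of NTHi differed between experiments for 0 of 32 chains by the edgeR interaction test, with 0 at an unadjusted p below 0.05 and 0 called by DESeq2. Over all genes 0 were called by edgeR, 675 had an unadjusted p below 0.05, and DESeq2 called 5.

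**Figure D1:**
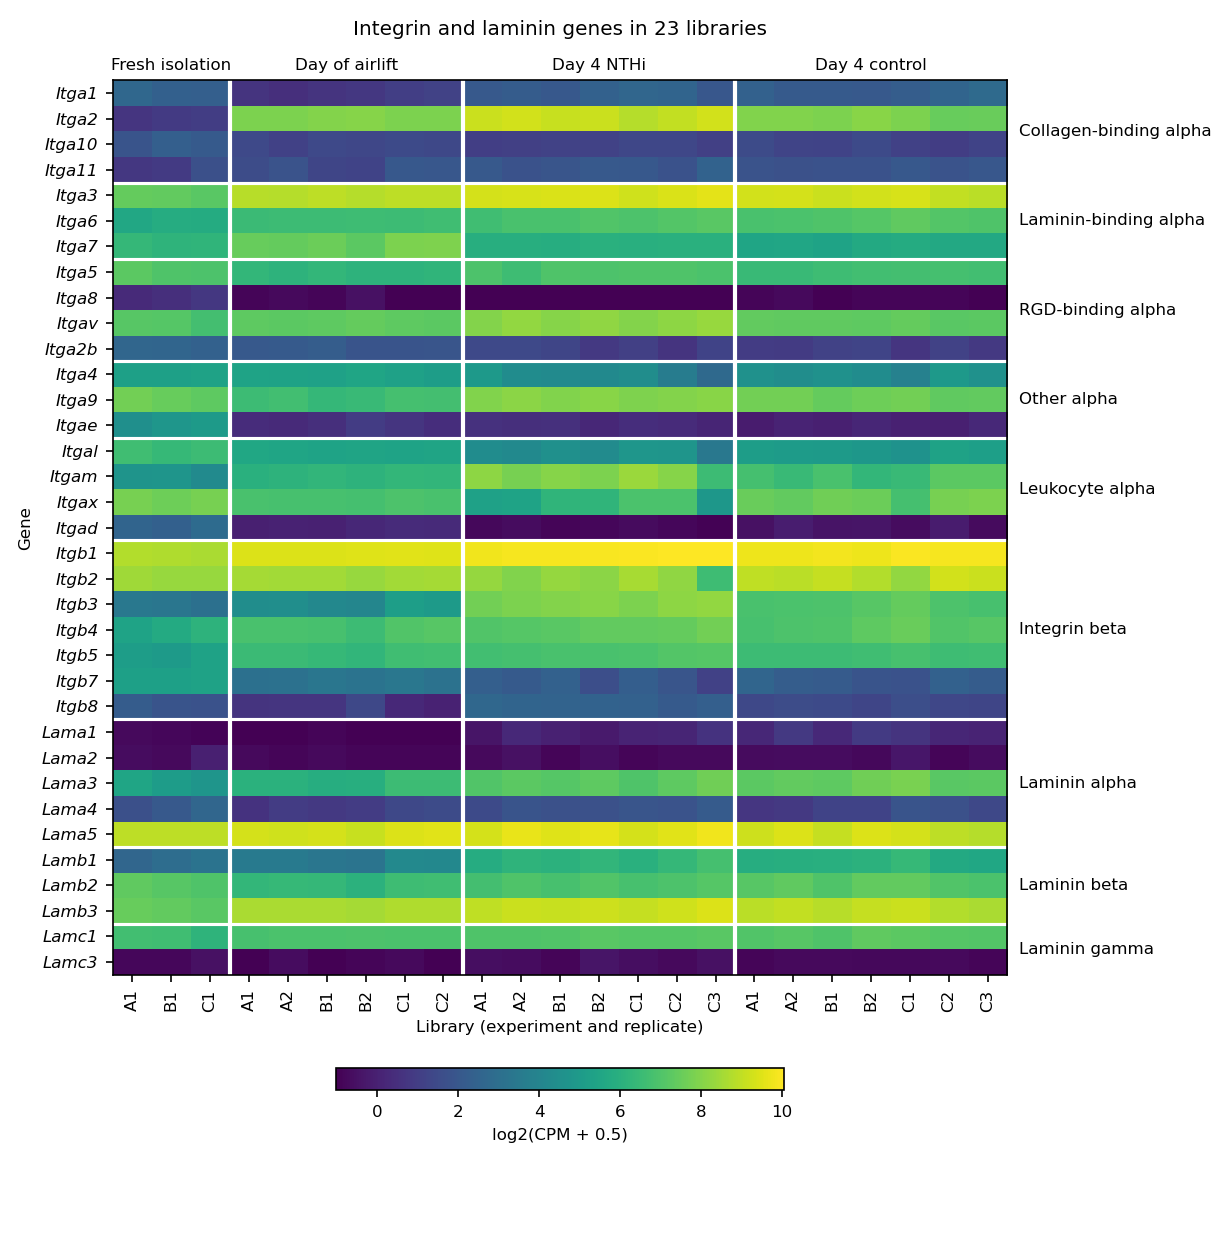
Level of the integrin and laminin genes (rows, grouped by chain) in each of the 23 libraries (columns, grouped by stage and treatment), as the log2 of CPM plus 0.5; brighter colours are higher. Itga2 is dark in the 3 fresh libraries and bright in the 20 others, and Itgae is brighter in the fresh libraries than in all others.

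The scaling of libraries bears on the isolation comparisons. With library totals alone in place of TMM factors, the median gene shifted by 0.49 at airlift over isolation, and all genes split into 10131 higher and 4223 lower in place of 6928 and 6718. For day 4 control over isolation the shift was also 0.49, with 10149 higher and 4497 lower in place of 7108 and 6904. For NTHi over control the shift was -0.06, with 2282 higher and 4416 lower in place of 3281 and 3338. The chains then split 19 and 12, 20 and 9, and 12 and 5 in these comparisons. Called directions held in sign under that scaling except for Itga5 in day 4 control over isolation.

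Itga2, Itgb8, Itgam and Itgax were the tested chains whose level moved by at least 1 on the log2 scale with NTHi at day 4, the first 3 upward and Itgax downward. Their promoter windows are shown so that the start regions of these genes can be compared. Each runs from 250 bases before to 50 after the start site in RefSeq, build GRCm38.p6. Windows were held for 22 of the 36 genes. The Itga2 window is chr13:114932051-114932350 on the minus strand, that of Itgb8 chr12:119238227-119238526 on the minus strand, that of Itgam chr7:128062390-128062689 on the plus strand and that of Itgax chr7:128129300-128129599 on the plus strand. Capitals mark matches to the motifs searched, read 5′ to 3′ on the gene's strand.
Itga2: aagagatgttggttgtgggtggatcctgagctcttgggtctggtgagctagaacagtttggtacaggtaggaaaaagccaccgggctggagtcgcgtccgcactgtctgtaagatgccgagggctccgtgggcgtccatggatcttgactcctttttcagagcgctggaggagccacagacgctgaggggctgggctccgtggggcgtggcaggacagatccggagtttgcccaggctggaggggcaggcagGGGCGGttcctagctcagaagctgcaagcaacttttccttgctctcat
Itgb8: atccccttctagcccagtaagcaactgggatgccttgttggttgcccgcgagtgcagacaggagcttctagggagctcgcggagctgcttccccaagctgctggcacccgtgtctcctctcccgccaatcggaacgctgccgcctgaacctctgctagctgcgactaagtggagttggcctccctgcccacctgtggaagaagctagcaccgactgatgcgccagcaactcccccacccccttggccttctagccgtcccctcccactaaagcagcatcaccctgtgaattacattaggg
Itgam: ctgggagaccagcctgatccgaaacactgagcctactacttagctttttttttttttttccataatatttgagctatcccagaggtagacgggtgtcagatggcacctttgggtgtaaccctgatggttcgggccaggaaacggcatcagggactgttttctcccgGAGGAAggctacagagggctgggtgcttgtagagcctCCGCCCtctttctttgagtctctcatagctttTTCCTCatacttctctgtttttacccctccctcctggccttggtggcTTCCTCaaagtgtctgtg
Itgax: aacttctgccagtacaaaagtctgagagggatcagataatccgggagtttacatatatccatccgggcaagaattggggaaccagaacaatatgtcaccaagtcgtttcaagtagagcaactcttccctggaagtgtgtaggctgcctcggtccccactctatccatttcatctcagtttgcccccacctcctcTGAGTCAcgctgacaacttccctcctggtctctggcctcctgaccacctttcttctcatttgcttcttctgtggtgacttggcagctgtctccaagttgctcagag
Both strands were searched for AP-1 (TGANTCA), the GC box (GGGCGG), the PU.1 core (GAGGAA) and NF-kB. Itga2 held 1 GC box, Itgam held 1 GC box and 3 PU.1 cores, Itgax held 1 AP-1 match, and Itgb8 held none of the 4. Among 32851 windows of this length, 7.81% held AP-1, 35.7% the GC box, 28.3% the PU.1 core and 4.51% NF-kB. The motifs do not overlap each other in these windows, and a match describes letters only.

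Lama3 and Lamb3 encode chains of laminin-332, and both had their highest group medians at day 4. Lama3, the α chain, had 26.5, 33.8 and 44.1 CPM in the fresh libraries, 58.9 to 94.0 CPM (median 66.0) at airlift and 146 to 223 CPM (median 156) in day 4 control. No 2 of these stages overlapped, and the log2 change was 1.06 ± 0.18 at airlift over isolation (± SE, as for all log2 changes given here; adjusted p = 3.66e-05, edgeR) and 1.22 ± 0.13 in control over airlift (adjusted p = 4.64e-07). The change at airlift was 0.69 without experiment C. Basal cell markers moved the same way after airlift, with 8 of 8 higher in control and sums of 133 to 504 CPM against 25.3 to 110.0 CPM at airlift. At airlift over isolation they went the other way, with 0 of 8 higher and 5 lower (median log2 change -1.61). Alveolar markers rose after airlift too, with 6 of 8 type 1 and 7 of 8 type 2 markers higher in control and 0 lower. At airlift over isolation, 3 type 1 markers were higher and 5 lower, and of type 2 markers 0 were higher and 8 lower. The part of any of these cell types in the laminin levels was not tested. In bulk RNA, fewer cells of a type and less RNA per cell cannot be told apart.

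Lamb3, the β chain of the same trimer, had 149, 168 and 178 CPM fresh, 374 to 418 CPM (median 401) at airlift and 403 to 574 CPM (median 472) in day 4 control. All airlift libraries exceeded all fresh ones (log2 change 1.30 ± 0.10, adjusted p = 9.36e-10), while control and airlift overlapped (0.26 ± 0.07, adjusted p = 0.00509).

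Lamb3 rose with NTHi, and Lama3 did not pass the test. Lamb3 ranged from 507 to 696 CPM (median 577) with NTHi, against 403 to 574 CPM in control (log2 change 0.25 ± 0.09, adjusted p = 0.0273). Lama3 ranged from 128 to 198 CPM (median 150.5) with NTHi, against 146 to 223 CPM in control (-0.18 ± 0.11, adjusted p = 0.19). The groups overlapped for both genes. The Lamb3 call was lost in 7 alternatives, among them leaving out experiment C (0.16, adjusted p = 0.0963) and scaling by library totals alone (0.19, adjusted p = 0.117). Lama3 was called without NTHi library C3 (-0.25, adjusted p = 0.0483) and without both libraries that stood apart (-0.18, adjusted p = 0.0460).

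**Figure D2:**
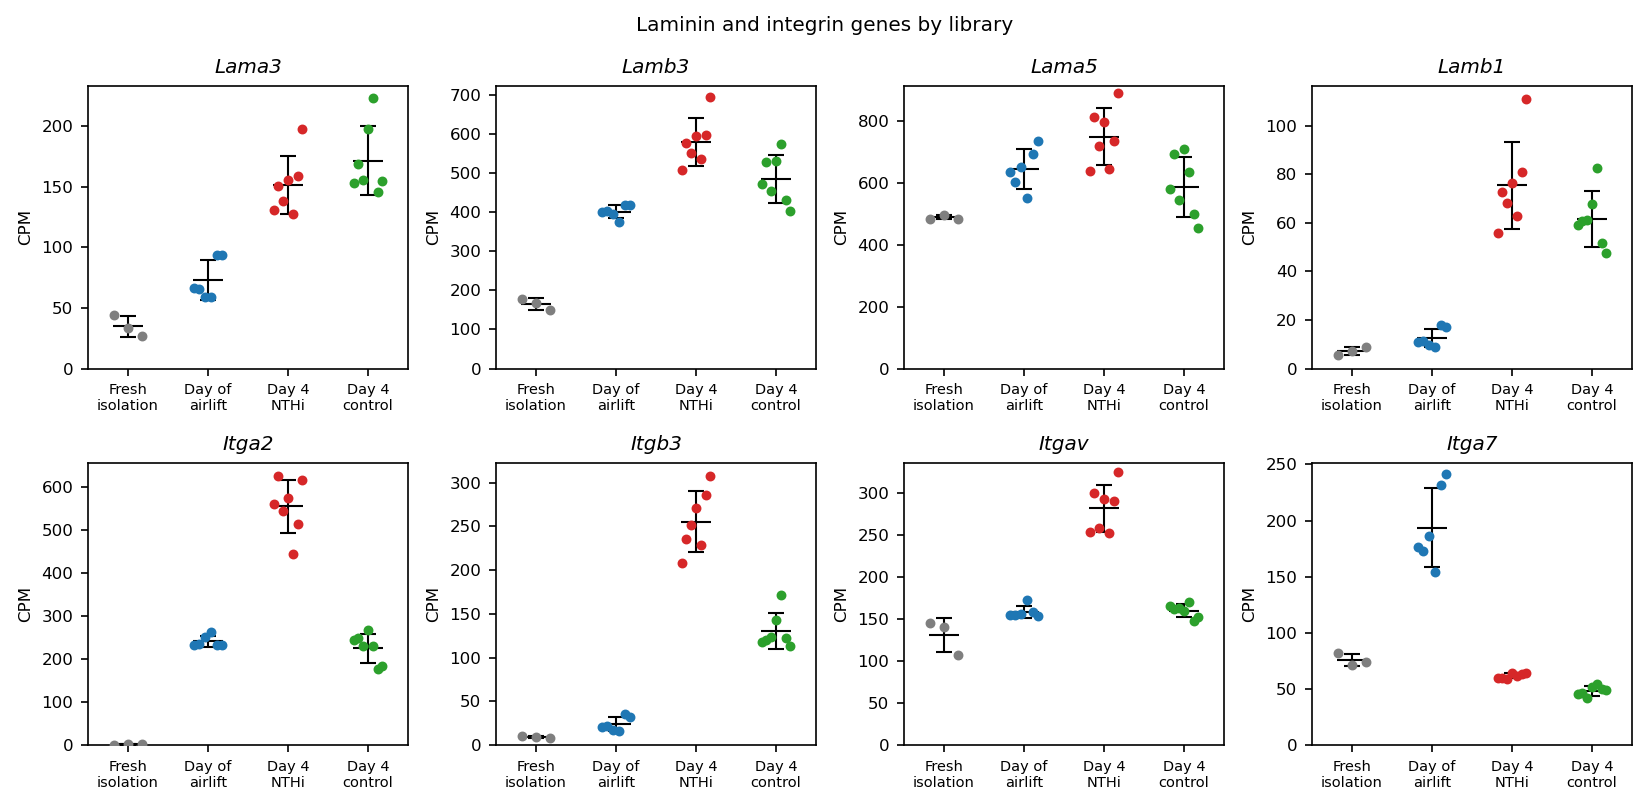
CPM of 8 genes in each library, by group; a point is a library, the wide bar the group mean and the error bar the SD (n = 3, 6, 7 and 7 from left to right). Itga2 was near 0 in the fresh cells, at 446 to 627 CPM with NTHi and at 177 to 268 CPM in day 4 control, and Itga7 was highest at airlift.

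Lama5, the α chain of the laminins most widespread in adult lung, was already high in fresh cells. Its level was 484, 484 and 495 CPM there, 549 to 736 CPM (median 643) at airlift and 454 to 709 CPM (median 581) in day 4 control. Airlift stood above isolation in every library (log2 change 0.42 ± 0.12, adjusted p = 0.00465), and control and airlift overlapped (-0.14 ± 0.09, adjusted p = 0.202). With NTHi Lama5 ranged from 637 to 890.3 CPM (median 736), against 454 to 709 CPM in control. The groups overlapped and the log2 change was 0.35 ± 0.10 (adjusted p = 0.013), and 0.23 without experiment C (adjusted p = 0.0872).

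Lamb1, the β chain that pairs with α5 and γ1 in laminin-511, showed the second largest rise of a laminin chain after airlift. It had 5.77, 7.13 and 8.70 CPM in fresh cells, 8.95 to 17.8 CPM (median 11.1) at airlift and 47.5 to 82.8 CPM (median 60.9) in day 4 control. No 2 stages overlapped, and control over airlift gave a log2 change of 2.28 ± 0.15 (adjusted p = 4.03e-10). With NTHi it ranged from 55.8 to 111 CPM (median 72.7), which overlapped control (0.28 ± 0.14, adjusted p = 0.119), and it was called without control library C1 (0.36, adjusted p = 0.0457) and without both libraries that stood apart (0.27, adjusted p = 0.0156). Lamc1, the γ chain of most laminins, had 72.0, 99.8 and 103 CPM fresh, 113 to 125 CPM (median 120.1) at airlift and 128 to 160.2 CPM (median 138) in control. Its stages did not overlap, with log2 changes of 0.41 ± 0.09 at airlift over isolation (adjusted p = 0.00065), 0.24 ± 0.07 in control over airlift (adjusted p = 0.00988) and 0.64 ± 0.09 in control over isolation (adjusted p = 4.47e-06). With NTHi Lamc1 had 129 to 148 CPM (median 137), overlapping control (-0.04 ± 0.05, adjusted p = 0.528).

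Mesenchymal markers also rose after airlift. All 10 of the 10 tested (12 listed) were higher in day 4 control, and the 12 summed to 201 to 505 CPM there against 30.0 to 80.8 CPM at airlift. Lamb1 and Lamc1 are made by mesenchymal as well as epithelial cells, and the part of mesenchymal cells in their levels was not tested. With NTHi the mesenchymal sum was 192 to 536 CPM, with 2 of 10 tested markers higher and 4 lower than in control.

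Lamb2, the β chain of laminin-521, went the other way at airlift. It had 128, 145 and 160.0 CPM in fresh cells, 68.1 to 98.8 CPM (median 81.4) at airlift and 120.4 to 168 CPM (median 145) in day 4 control. All airlift libraries lay below all fresh and all control libraries, with log2 changes of -0.76 ± 0.12 at airlift over isolation (adjusted p = 1.33e-05) and 0.78 ± 0.10 in control over airlift (adjusted p = 1.96e-06). With NTHi Lamb2 ranged from 105 to 139 CPM (median 125), which overlapped control (-0.26 ± 0.09, adjusted p = 0.0307). That call was lost in 8 alternatives, among them leaving out experiment A (-0.20, adjusted p = 0.191) and leaving out control library C1 (-0.22, adjusted p = 0.0596).

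The remaining laminin chains were low. Lama4, the α chain of vascular laminins, had 2.77, 3.74 and 5.75 CPM fresh, 1.05 to 2.40 CPM at airlift, and 2.27 to 3.96 CPM with NTHi against 1.18 to 3.12 CPM in control. It fell at airlift over isolation (-1.30 ± 0.16, adjusted p = 6.26e-07) and rose with NTHi over control (0.64 ± 0.14, adjusted p = 0.00231), with overlap in the second comparison. Endothelial markers (10 genes) summed to 86.3 to 104 CPM in fresh cells, 27.3 to 48.9 CPM at airlift, and 14.2 to 23.2 CPM with NTHi against 29.1 to 48.7 CPM in control. Of them 7 fell and 1 rose at airlift over isolation, and with NTHi over control 4 of 9 tested fell and 1 rose; their part in Lama4 was not tested. Lama1, the α chain of the embryonic laminin-111, had 258 counts over the 7 control libraries and 2 over the 6 airlift libraries, a ratio of 106 in CPM (95% counting interval 29.0 to 879). With NTHi it averaged 0.585 ± 0.251 CPM, against 0.903 ± 0.331 CPM in control (SD, n = 7 each; log2 change -0.64 ± 0.30, adjusted p = 0.108, edgeR). Lama1 was called lower without NTHi library C3 (-0.83, adjusted p = 0.0315), without both libraries that stood apart (-0.76, adjusted p = 0.0477) and without experiment C (-1.09, adjusted p = 0.0306). Lama2, the α chain of muscle laminin, and Lamc3, a minor γ chain, had group means of at most 0.246 CPM and were not tested. Counting intervals cover counting error only, and they take each count as 1 independent fragment. Most counts below 20 were even, so independent fragments may be fewer than counts and the interval too narrow.

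Among the laminin receptors, Itga3 (the α chain that pairs with β1 to bind laminin-332) rose most in culture. It had 150.1, 165 and 170.2 CPM in fresh cells, 452 to 498 CPM (median 479) at airlift and 475 to 668 CPM (median 622) in day 4 control. All airlift libraries stood above all fresh ones (log2 change 1.58 ± 0.09, adjusted p = 3.06e-11), and control overlapped airlift (0.30 ± 0.07, adjusted p = 0.00114). With NTHi it ranged from 611 to 769 CPM (median 676), overlapping control (0.20 ± 0.08, adjusted p = 0.0491). That last call was lost in 17 alternatives, among them leaving out experiment C (0.12, adjusted p = 0.167) and leaving out NTHi library C3 (0.16, adjusted p = 0.0940).

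Itga6, the α chain of both a β1 and a β4 receptor for laminin, had 49.3, 54.7 and 55.9 CPM fresh, 91.9 to 100.5 CPM (median 94.9) at airlift and 116 to 161 CPM (median 126) in control. The stages did not overlap, with log2 changes of 0.86 ± 0.07 at airlift over isolation (adjusted p = 6.31e-09) and 0.45 ± 0.06 in control over airlift (adjusted p = 2.32e-06). Its partner Itgb4, which links α6β4 to keratin at hemidesmosomes, had 42.2, 53.8 and 70.0 CPM fresh, 95.8 to 142 CPM (median 116) at airlift and 113 to 185 CPM (median 133) in control. Itgb4 rose at airlift (1.14 ± 0.12, adjusted p = 9.58e-08), and control and airlift overlapped (0.19 ± 0.09, adjusted p = 0.0763). With NTHi, Itga6 had 102 to 149 CPM (median 123), overlapping control (-0.09 ± 0.06, adjusted p = 0.263). Itgb4 ranged from 133 to 205 CPM with NTHi, against 113 to 185 CPM in control (0.20 ± 0.08, adjusted p = 0.0492), a call that was lost when any of the 3 experiments was left out and without NTHi library C3 (0.16, adjusted p = 0.0957).

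Itga7, a laminin-binding α chain best known in muscle, peaked at airlift. It had 71.4, 74.4 and 81.6 CPM in fresh cells, 154 to 242 CPM (median 181) at airlift and 42.0 to 54.7 CPM (median 49.4) in day 4 control. The 3 stages did not overlap: the log2 change was 1.35 ± 0.10 at airlift over isolation (adjusted p = 4.19e-10) and -2.02 ± 0.07 in control over airlift (adjusted p = 2.23e-13). With NTHi all 7 libraries (59.0 to 64.5 CPM, median 61.3) lay above all 7 control libraries (0.35 ± 0.05, adjusted p = 2.47e-05). Itgb1, the β chain shared by the α1 to α11 receptors and αv, had 398, 426 and 439 CPM fresh, 694 to 749.6 CPM (median 717) at airlift and 859 to 998 CPM (median 930.0) in control, without overlap. It rose at airlift over isolation (0.78 ± 0.06, adjusted p = 7.97e-10) and in control over airlift (0.34 ± 0.04, adjusted p = 4.49e-06). With NTHi it had 905 to 1052 CPM, overlapping control, with a log2 change of 0.09 ± 0.04 (adjusted p = 0.0477) that missed the threshold in 24 alternatives. Without control library C1 its adjusted p was 0.0526, without NTHi library C3 0.0848 and without both 0.0580.

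**Figure D3:**
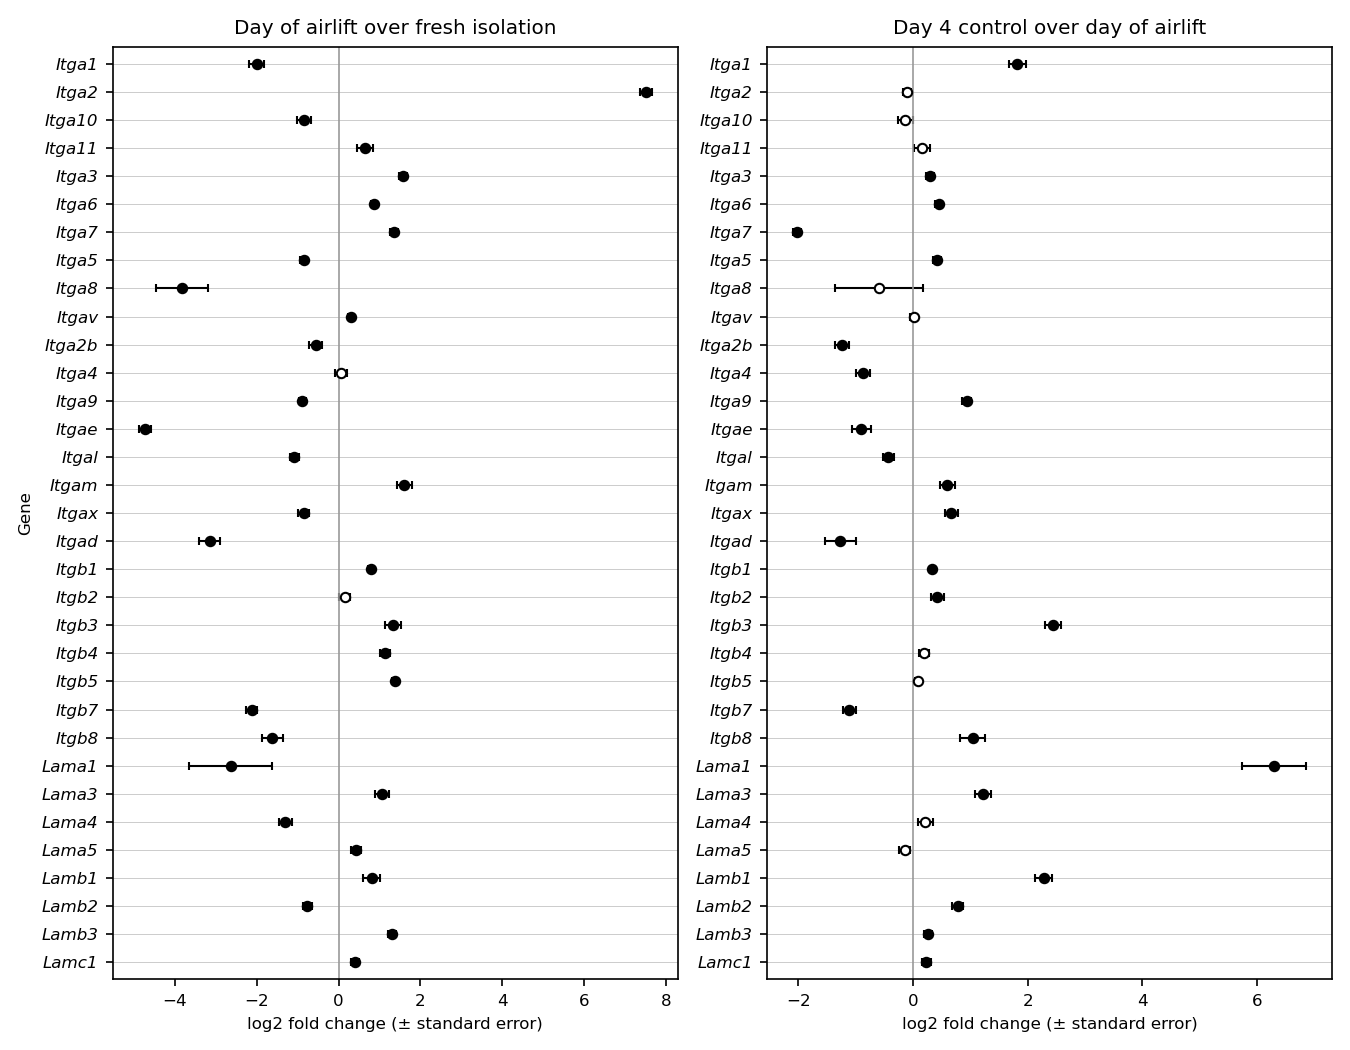
log2 fold change of tested chains at airlift over isolation (left) and in day 4 control over airlift (right), from the edgeR fit, with the standard error as a bar; filled points passed an adjusted p of 0.05 and open points did not. Itga2 lies at 7.51 on the left and at -0.10 on the right, while Itga7 lies at 1.35 and -2.02.

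Itga2, the α chain of the collagen receptor α2β1, changed most of all 36 genes. Its level was 1.13, 1.34 and 1.53 CPM in the fresh libraries, 233 to 264 CPM (median 234) at airlift and 177 to 268 CPM (median 230.1) in day 4 control. The fresh libraries lay far below all others (mean ratio 181 at airlift over isolation, log2 change 7.51 ± 0.15, adjusted p = 1.1e-17), and control overlapped airlift (-0.10 ± 0.07, adjusted p = 0.222). NTHi cultures had 446 to 627 CPM (median 562), and each of the 7 libraries stood above each control library. The log2 change was 1.30 ± 0.08 (adjusted p = 5.91e-09), with 1.27, 1.17 and 1.42 in experiments A, B and C on the scale of log2(CPM + 0.5). Its promoter window, printed above, holds a GC box just after the start site and no other motif searched.

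The other collagen-binding α chains were low in every group. Itga1 had 4.51, 4.66 and 6.02 CPM fresh, 0.912 to 1.75 CPM (median 1.16) at airlift and 3.71 to 6.51 CPM (median 4.30) in control. Airlift stood below both other stages in every library (-2.003 ± 0.182 over isolation, adjusted p = 1.17e-08; control over airlift 1.82 ± 0.15, adjusted p = 1.28e-08). Itga10 fell at airlift (-0.85 ± 0.17, adjusted p = 0.000151; -0.37 and adjusted p = 0.0569 when scaled by library totals alone). Itga11, known from fibroblasts, was higher at airlift than at isolation (0.65 ± 0.19, adjusted p = 0.00563), with 1.84 to 3.61 CPM against 1.24 to 2.77 CPM, and was not called without experiment A (0.43, adjusted p = 0.118). With NTHi over control none of these 3 was called, with log2 changes of -0.06 for Itga1, -0.12 for Itga10 and 0.22 for Itga11 (adjusted p = 0.76, 0.51 and 0.147, edgeR).

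Itgav, the α chain shared by the αv receptors for RGD proteins, moved little through the untreated stages and rose with NTHi. It had 108, 140.5 and 145 CPM in fresh cells, 153 to 172 CPM (median 156) at airlift and 148 to 170.3 CPM (median 162) in day 4 control. The log2 change was 0.29 ± 0.07 at airlift over isolation (adjusted p = 0.0013; 0.18 without isolation library C1) and 0.01 ± 0.06 in control over airlift (adjusted p = 0.877). NTHi cultures had 252 to 325 CPM (median 290.5), and all 7 libraries exceeded all 7 of control (0.82 ± 0.06, adjusted p = 4.7e-08).

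Itgb3, a β partner of αv and the β chain of the platelet receptor αIIbβ3, rose at each step. It had 8.04, 9.70 and 10.1 CPM fresh, 16.1 to 35.6 CPM (median 21.1) at airlift, and 113 to 171 CPM (median 123) in control, with no overlap between stages. The log2 change was 1.33 ± 0.20 at airlift over isolation (adjusted p = 8.52e-06) and 2.45 ± 0.14 in control over airlift (adjusted p = 1.22e-10). Its NTHi level was 208 to 308 CPM (median 251), above control in every library (0.97 ± 0.09, adjusted p = 4.63e-07). Itga2b, the αIIb chain, had 4.82, 5.50 and 5.73 CPM fresh, 3.16 to 4.31 CPM at airlift and 1.11 to 1.89 CPM in control. It fell in control over airlift without overlap (-1.24 ± 0.13, adjusted p = 1.68e-07), and with NTHi it had 1.07 to 2.24 CPM (0.20 ± 0.17, adjusted p = 0.383). The 7 platelet and megakaryocyte markers summed to 90.5 to 219 CPM with NTHi and 79.1 to 131 CPM in control. Ppbp averaged 128.5 CPM with NTHi and 34.4 CPM in control, Pf4 24.4 and 37.1 CPM, and Clec1b 11.1 and 28.9 CPM. Among these, Ppbp alone had the higher mean with NTHi. The other markers averaged at most 1.08 CPM in either group, and Gp9 was at 0 in all day 4 libraries. Of the 4 markers tested with NTHi, 1 was higher and 2 were lower. The part of platelets and megakaryocytes in Itgb3 was not tested.

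Itgb5 and Itgb8 are further β partners of αv, and αvβ8 is known for releasing TGF-β from its latent form. Itgb5 had 32.1, 34.4 and 40.2 CPM fresh, 76.8 to 103 CPM (median 91.7) at airlift and 93.2 to 113 CPM (median 96.2) in control. It rose at airlift without overlap (1.37 ± 0.07, adjusted p = 2.73e-12) and again with NTHi, at 103 to 139 CPM (median 116) with overlap (0.27 ± 0.05, adjusted p = 0.00034). Itgb8 had 2.98, 3.14 and 4.16 CPM fresh, 0.526 to 2.16 CPM (median 1.12) at airlift and 1.94 to 2.60 CPM (median 2.15) in control. It fell at airlift over isolation (-1.62 ± 0.26, adjusted p = 2.03e-05) and rose in control over airlift (1.04 ± 0.22, adjusted p = 0.000637; 0.68 without experiment C). Its NTHi level was 3.89 to 5.87 CPM (median 5.02), above control in all 7 libraries (1.16 ± 0.10, adjusted p = 2.53e-07).

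Itga5, the α chain of the fibronectin receptor α5β1, dipped at airlift. It had 125.5, 127 and 152 CPM in fresh cells, 69.7 to 79.0 CPM (median 72.5) at airlift and 89.1 to 110.1 CPM (median 102) in control, without overlap. The log2 change was -0.86 ± 0.08 at airlift over isolation (adjusted p = 1.4e-08) and 0.42 ± 0.06 in control over airlift (adjusted p = 2.48e-05). Control lay below isolation (-0.44 ± 0.08, adjusted p = 5.13e-05), a direction that turned to 0.04 (adjusted p = 0.674) when libraries were scaled by totals alone. NTHi cultures had 98.7 to 127 CPM (median 123), overlapping control (0.27 ± 0.05, adjusted p = 0.000217). Itga8, the α chain of a nephronectin receptor of mesenchyme, had 0.730, 0.917 and 1.25 CPM fresh, and 0 counts in the 7 NTHi libraries against 12 counts in control. The control level was 3.77-fold above the NTHi floor, taken as 3 counts over the group. That value leaves out the counting error of the 12 control counts, so it is no lower bound on the difference. Itga8 was not tested with NTHi over control.

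**Figure D4:**
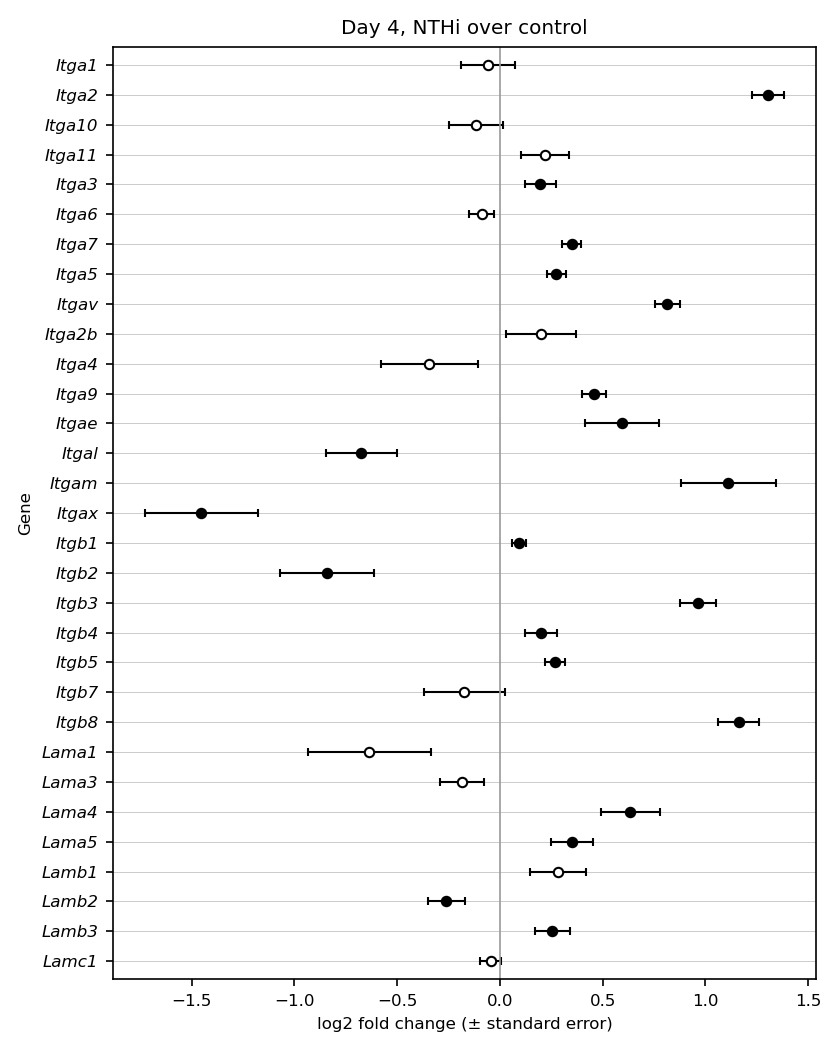
log2 fold change of tested chains at day 4, NTHi over control, from the edgeR fit, with the standard error as a bar; filled points passed an adjusted p of 0.05 and open points did not. Itga2 (1.30), Itgb8 (1.16), Itgam (1.11), Itgb3 (0.97) and Itgav (0.82) lie farthest to the right and Itgax (-1.45) farthest to the left.

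Itga9 and Itga4 form the α4 and α9 class, which binds Vcam1, tenascin C and related ligands. Itga9 had 159, 180 and 206 CPM fresh, 81.6 to 111 CPM (median 98.2) at airlift and 163 to 208 CPM (median 193) in control. It fell at airlift over isolation (-0.88 ± 0.09, adjusted p = 7.6e-08) and rose in control over airlift (0.94 ± 0.08, adjusted p = 7.83e-09), with airlift below both other stages in every library. Its NTHi level was 241 to 281 CPM (median 257), above control in all 7 libraries (0.46 ± 0.06, adjusted p = 1.98e-05). Itga4, made largely by leukocytes, had 37.8, 38.2 and 41.1 CPM fresh, 34.9 to 44.3 CPM (median 40.2) at airlift and 13.8 to 30.2 CPM (median 23.1) in control. It fell in control over airlift without overlap (-0.87 ± 0.12, adjusted p = 6.62e-06). Its NTHi level was 6.38 to 30.3 CPM, overlapping control (-0.34 ± 0.24, adjusted p = 0.274).

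Itgae and Itgb7, which pair as the E-cadherin receptor αEβ7 of lymphocytes resident in epithelium, were highest in fresh cells. Itgae had 22.2, 27.1 and 31.6 CPM fresh, 0.739 to 1.48 CPM (median 0.896) at airlift and 0.409 to 0.707 CPM (median 0.520) in control. The airlift mean was 27.1-fold below the fresh mean, and the log2 change at airlift over isolation was -4.74 ± 0.15 (adjusted p = 4.55e-15). Itgb7 had 37.8, 38.1 and 40.0 CPM fresh, 7.91 to 9.74 CPM (median 8.51) at airlift and 2.95 to 5.55 CPM (median 4.09) in control, with log2 changes of -2.12 ± 0.13 (adjusted p = 5.4e-11) and -1.11 ± 0.12 (adjusted p = 2.46e-07). Neither gene's stages overlapped. With NTHi Itgae had 0.613 to 0.974 CPM, against 0.409 to 0.707 CPM in control (0.59 ± 0.18, adjusted p = 0.0148). That call was lost without experiment A (0.46, adjusted p = 0.119) and without experiment B (0.61, adjusted p = 0.0598). Itgb7 had 1.71 to 4.88 CPM with NTHi, overlapping control (-0.17 ± 0.20, adjusted p = 0.524).

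The leukocyte integrins were measured in cells selected for an epithelial marker, and leukocyte markers were present in every group. Of 16 markers, 12 fell and 1 rose at airlift over isolation, and 4 fell and 5 rose in day 4 control over airlift. With NTHi over control 9 of 15 tested fell and 1 rose. Without the lysozyme gene Lyz2, which lung epithelium also makes, the markers summed to 1270 to 1443 CPM in fresh cells, 851 to 1043 CPM at airlift, 259 to 961 CPM with NTHi and 893 to 1885 CPM in control. Cxcr2 was at 0 in all NTHi libraries and averaged 0.78 ± 0.40 CPM in control. S100a8 and Csf3r had higher means with NTHi, at 14.2 ± 4.4 against 2.69 ± 0.97 CPM and 3.16 ± 1.44 against 2.19 ± 0.69 CPM (SD, n = 7 each). As only 1 marker of the list was called higher, these are not both called rises. Marco and C1qa had lower means with NTHi, at 50 ± 20 against 393 ± 93 CPM and 0.57 ± 0.19 against 8.4 ± 2.5 CPM. Ptprc, which encodes the pan-leukocyte marker CD45, averaged 33.4 ± 9.5 CPM with NTHi and 67.2 ± 15.7 CPM in control (SD, n = 7 each).

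Itgb2, the β chain common to the leukocyte integrins, had 318, 326 and 353 CPM fresh, 327 to 378 CPM (median 369) at airlift and 306 to 622 CPM (median 498) in control. Airlift overlapped isolation (0.15 ± 0.14, adjusted p = 0.36), and control overlapped airlift (0.42 ± 0.11, adjusted p = 0.004). Its NTHi level was 98.6 to 385 CPM (median 296), overlapping control (-0.84 ± 0.23, adjusted p = 0.00845; -0.86 and adjusted p = 0.0563 without experiment A). Itgal, the α chain of LFA-1, had 84.3, 95.0 and 101 CPM fresh, 41.6 to 46.9 CPM (median 43.3) at airlift and 24.0 to 40.9 CPM (median 32.5) in control, falling at each step without overlap. Its log2 changes were -1.08 ± 0.11 (adjusted p = 4.22e-08) and -0.43 ± 0.09 (adjusted p = 0.000489). With NTHi it had 10.3 to 27.1 CPM (median 20.3), against 24.0 to 40.9 CPM in control (-0.67 ± 0.17, adjusted p = 0.00621; -0.62 and adjusted p = 0.0676 without experiment A).

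Itgax (CD11c, of dendritic cells and lung macrophages) and Itgam (CD11b, of neutrophils, monocytes and many macrophages) moved in opposite directions with NTHi. Itgax had 195, 217 and 221 CPM fresh, 109 to 123 CPM (median 115) at airlift and 111 to 232 CPM (median 188) in control. It fell at airlift over isolation (-0.85 ± 0.14, adjusted p = 2.98e-05) and rose in control over airlift (0.67 ± 0.12, adjusted p = 0.000101). With NTHi it had 28.2 to 119 CPM (median 73.6), with overlap through control library C1 alone (-1.45 ± 0.27, adjusted p = 0.00058). Itgam had 19.2, 26.1 and 26.1 CPM fresh, 63.4 to 78.0 CPM (median 73.2) at airlift and 79.8 to 152 CPM (median 108) in control, rising at both steps without overlap (1.61 ± 0.19, adjusted p = 2.96e-07; 0.60 ± 0.13, adjusted p = 0.00093). With NTHi it had 93.1 to 335 CPM (median 258). Apart from NTHi library C3 at 93.1 CPM, the NTHi libraries (217 to 335 CPM) stood above all control libraries, and the log2 change was 1.11 ± 0.23 (adjusted p = 0.00121). Itgad, the α chain of a further β2 integrin, had 4.73, 5.33 and 6.66 CPM fresh, 0.476 to 0.766 CPM at airlift (-3.15 ± 0.26, adjusted p = 2.3e-09), and means of 0.0858 CPM with NTHi and 0.257 CPM in control, where it was not tested.

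The 2 libraries that stood apart were also the lowest of their groups for Ptprc, at 13.2 CPM in NTHi C3 and 45.1 CPM in control C1, and for Itgb2, at 98.6 and 306 CPM. With both left out, 16 chains were higher and 7 lower with NTHi. Set against Ptprc in the same library, a ratio chosen after the values were seen, Itgam came to 7.18 ± 0.74 with NTHi (range 5.93 to 8.24) and 1.67 ± 0.19 in control (range 1.40 to 1.96, SD, n = 7 each). NTHi C3 lay within its group on that ratio, and the groups did not overlap. Itgb2 per Ptprc was 8.18 ± 0.93 with NTHi and 7.36 ± 0.49 in control, with overlap, and Itgax per Ptprc was 2.15 ± 0.93 with NTHi and 2.78 ± 0.37 in control, with overlap. Itgal per Ptprc was 0.635 ± 0.120 with NTHi and 0.495 ± 0.041 in control, also with overlap, so its mean ratio was higher with NTHi while its CPM was lower. Such ratios depend on the marker chosen. Cd52 averaged 29.5 ± 10.3 CPM with NTHi and 31.2 ± 7.3 CPM in control, and Laptm5 157 ± 53 and 385 ± 86 CPM (SD, n = 7 each). What share of the β2 integrin changes came from the number of leukocytes was not tested.

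**Figure D5:**
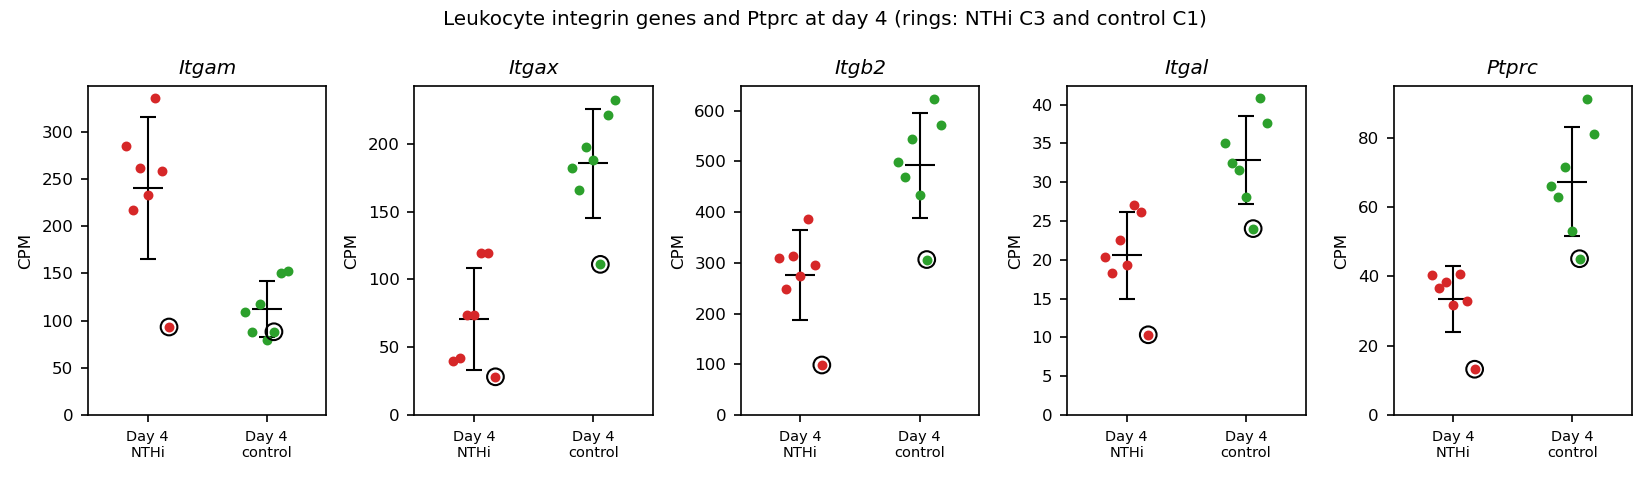
CPM of 4 leukocyte integrin genes and of Ptprc in the 7 NTHi and 7 control libraries of day 4; a point is a library, the wide bar the mean, the error bar the SD, and a ring marks NTHi C3 and control C1. Itgam is higher with NTHi and Itgax, Itgb2, Itgal and Ptprc are lower, and NTHi C3 is the lowest NTHi library in all 5 panels.

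Levels were set against each other only per kilobase of exon. In day 4 control high chains were Itgb1 at 225 CPM per kb, Itgb2 at 161, Itga3 at 103, Lamb3 at 73.4 and Lama5 at 51.6 CPM per kb. Lama3 had 3.24 CPM per kb fresh, 6.80 at airlift, 14.1 with NTHi and 15.95 in control. Lamb3 stood above it in every group, at 25.0 CPM per kb fresh, 60.7 at airlift, 87.7 with NTHi and 73.4 in control.

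The β partners of αv changed order on the same scale. Itgb5 stood above Itgb3 in fresh cells, at 10.01 against 1.57 CPM per kb, and at airlift, at 25.6 against 4.04 CPM per kb. With NTHi Itgb3 had the higher mean, 43.3 ± 5.9 against 33.6 ± 3.8 CPM per kb for Itgb5, and in control the lower, 22.1 ± 3.5 against 27.8 ± 2.0 CPM per kb (SD, n = 7 each). Itgav itself averaged 26.2 CPM per kb with NTHi and 14.9 CPM per kb in control, and Itgb8 averaged at most 0.450 CPM per kb in any group. Among the collagen-binding α chains Itga2 averaged 31.6 CPM per kb in control, and Itga1, Itga10 and Itga11 averaged 0.249, 0.370 and 0.605 CPM per kb. For the β2 partners, Itgam exceeded Itgax with NTHi, at 47.8 against 14.8 CPM per kb, and lay below it in control, at 22.3 against 38.6 CPM per kb. Itgam shares 3450 of its 5024 exon bases with the model Gm49368. How reads there were counted is not known, so its level per kilobase may be too low. Its order against Itgax, above all in control, is therefore uncertain.

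Genes of other basement membrane proteins were mostly lower with NTHi. Of 14 partners, such as collagen IV, nidogens and perlecan, 13 were tested with NTHi over control, 9 were lower and 1 was higher, with a median log2 change of -0.57 (all genes 0.00). The collagen IV chains Col4a1 (304 ± 29 against 531 ± 58 CPM, log2 change -0.81), Col4a2 (-0.84), Col4a3 (-1.11) and Col4a4 (-0.99) led the list, and Npnt, an α8β1 ligand, was the 1 that rose (98 ± 12 against 73 ± 11 CPM, 0.42). In day 4 control over airlift 13 of 14 were higher and 1 lower (median 0.66, all genes -0.02), among them Sparc at 1.61 and Col4a3 at 1.63. At airlift over isolation 8 were higher and 2 lower (median 0.61), led by Ntn4 at 1.82 and agrin (Agrn) at 2.19. With NTHi over control, 7 of 8 alveolar type 1 markers were lower and 1 higher, and of 8 type 2 markers 4 were lower and 3 higher. The part of these cells in the basement membrane genes was not tested.

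Partners of α6β4 at the hemidesmosome were followed as 5 genes, all tested, of which 4 were higher and 0 lower in day 4 control over airlift (median 3.24), with Col17a1 at 26.8 ± 11.9 CPM against 1.89 ± 1.29 CPM and the basal keratin Krt14 at 12.1 ± 4.9 against 0.82 ± 0.50 CPM. With NTHi over control 2 were lower and 0 higher, of which Krt5 had 32.7 ± 13.4 CPM against 102 ± 46 CPM (log2 change -1.63) and Col17a1 gave -0.54. At airlift over isolation 1 was higher, the tetraspanin Cd151 (1.33), and 3 were lower. Col17a1, Krt5 and Krt14 are also basal cell markers, of which 7 of 8 were lower with NTHi, with sums of 68.9 to 228 CPM against 133 to 504 CPM in control; their part here was not tested.

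Ligands of integrins other than laminins rose between airlift and day 4, with 10 of 14 tested higher in control, 0 lower and a median of 0.99 (all genes -0.02). Fibronectin (Fn1), bound by α5β1, had 3905 ± 743 CPM in control and 1547 ± 194 CPM at airlift, and osteopontin (Spp1), an αvβ3 and α9β1 ligand, had 1259 ± 290.1 against 133 ± 25 CPM. With NTHi over control 5 of 14 were higher and 1 lower (median 0.14). Vcam1, the α4β1 ligand, had 104 ± 15 CPM with NTHi and 32.7 ± 2.6 CPM in control (log2 change 1.66). Icam1, bound by the αL and αM receptors, had 1486 ± 52 and 918 ± 44 CPM (0.69), and the E-cadherin gene Cdh1, whose protein αEβ7 binds, had 1602 ± 121 and 1203 ± 101 CPM (0.41). Spp1 was the 1 that fell (-1.06). At airlift over isolation 5 were higher and 6 lower.

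The machinery that links integrins to actin split evenly with NTHi, with 8 of 25 genes higher and 8 lower and a median of 0.03. The kindlin gene Fermt1 was higher (79 ± 12 against 49 ± 9 CPM, log2 change 0.70) and the tensin gene Tns1 lower (109.8 ± 11.5 against 281 ± 32 CPM, -1.36). At airlift over isolation 13 were higher and 6 lower (median 0.16), led by Actn1 at 1.28, and in day 4 control over airlift 7 were higher and 7 lower (median -0.01), with Fermt1 at 1.65 and the vinculin gene Vcl at -0.62. Of 7 tetraspanins and related membrane partners, 2 were higher and 2 lower with NTHi (median 0.07), with Cd47, a partner of αvβ3, at 0.63 and Cd9 at -0.74. At airlift over isolation 5 were higher and 2 lower (median 0.58), and in control over airlift 5 were higher and 0 lower (median 0.17).

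Exons of 12 of the 36 genes overlap another gene in the annotation at hand, and 9 of them a gene on the opposite strand. Itga4 shares 1124 bases with Cerkl, and Itgam shares 3450 bases with the model Gm49368 on the same strand. Whether strand was used in counting is not given in the sources used here, so reads in these stretches cannot be told apart.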

How the data were processed

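RNA was sequenced in bulk. The deposited values are raw counts, whole numbers that are not normalised, in 1 table per experiment (3 in all). Per the submitters' processing notes STAR, DESeq2 and the build GRCm39 were used, with no version stated. Which program counted reads, with which annotation and strand setting, is not given in the sources used here. Of 41098 lines in each table, 25 fragments of broken lines were left out. Among counts below 20, 69.3% to 74.9% were even, so counts may exceed independent fragments.

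The CPM values were computed here from the deposited counts on TMM-scaled library totals. Groups and experiments came from the labels, and the replicate numbers were not treated as pairs. Tests used edgeR 4.0.16 in R 4.3.3: genes kept by filterByExpr (minimum count 10), TMM, and the quasi-likelihood F-test with group and experiment as terms. The fit for NTHi over control held the 14 libraries of day 4, and the untreated stages shared 1 fit of 16 libraries. P-values were Benjamini-Hochberg adjusted over all genes tested. Standard errors are the log2 change divided by the square root of F. Levels per kilobase used exon lengths from GENCODE vM21, which is of another build (GRCm38) than the files, so no gene coordinates are given beyond the promoter windows. The fits were tested on simulated data. Replicates within an experiment differed by more than sampling noise in each of 13 pairs, which does not show whether they were separate animals or cultures. Each library counted once in the tests.

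The 36 genes, the related lists and the marker lists were chosen with earlier results of these data known. 1 of them was counted with the rest and is not otherwise reported here; the others were each accounted for. Values per library were given for chains with a mean of at least 10 CPM in a group or a called log2 change of at least 1, others by mean, range or count, and up to 4 genes of smallest p were named per related list. Alternatives were DESeq2 size factors, library totals alone, DESeq2 1.42.0, no filter, no experiment term, halved counts, leaving out each experiment or library, all 23 libraries in 1 fit, and a replicate block. Leaving out both libraries that stood apart was added after seeing the data. Figures were drawn with matplotlib 3.10.9.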

Additional observations from a re-analysis of the deposited data

Results flagged for a closer look

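For the 25 chains with at least 10 CPM in a group, the highest and the lowest library of each group were set against the rest of the group by Dixon's test, in 75 groups of 6 or 7 libraries. Chance alone marks about 1 in 20 such groups, and 4 were marked. Itga5 was lowest in NTHi library A2, at 98.7 CPM, with the nearest other NTHi library at 119 CPM. Itgav was highest in airlift library B2, at 172 CPM, with the nearest at 158 CPM. Itgb2 was lowest in the same airlift library, at 327 CPM, with the nearest at 361 CPM. Itgb5 was highest in control library C1, at 113 CPM, with the nearest at 101 CPM; that library also stood apart over all genes.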

How the results depend on the processing

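Of the called chains, 11 of 21 kept their call with NTHi over control under every alternative, 28 of 32 at airlift over isolation, 22 of 25 in day 4 control over airlift and 26 of 30 in control over isolation. The number called lower with NTHi, 5, was 1 without experiment A and 3 without experiment B, and ranged from 3 to 7 as single libraries were left out; the cause was not tested. Scaling by library totals alone gave 4223 genes lower at airlift over isolation in place of 6718, and 4497 in control over isolation in place of 6904, a setting in which Itga5 read 0.037 in place of -0.44. With both libraries that stood apart left out, 6816 genes and 16 higher and 7 lower chains were called with NTHi. Same-numbered libraries did not deviate together in every pair (correlations of -0.63 to 0.22 for NTHi and control, -0.13 to 0.00 for control and airlift). For NTHi and control the value was 0.13 in A, 0.22 in B and 0.21 for C2, and the negative ones, C1 and C3, each held a library that stood apart. Where a group has 2 libraries in an experiment, their deviations from its mean mirror each other. Both pairs of A, and both of B, therefore share 1 value, and the pairs are not independent. Whether the numbers pair the libraries cannot be told from these values. A replicate block gave 5982 genes and 14 higher and 4 lower chains with NTHi, and 8768 genes and 18 higher and 7 lower chains in control over airlift. Depth limits Lama1, Lama2, Lamc3, Itga8 and Itgad, which had few counts, and isolation rests on 3 libraries.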
